A study of Mus musculus with 6 samples.

Results

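The cytosolic ribosomal protein genes were taken by a rule on name and annotation that uses no measured value: all genes that GENCODE M21 annotates as protein-coding and whose symbol is Rpl or Rps followed by a number, with at most an a, x, y or l and a further number behind it, or is Rpsa, Rplp0, Rplp1 or Rplp2. This gave 83 members among the 54532 genes of the table, 32 named for the small subunit (Rps) and 51 for the large subunit (Rpl). At least 10 reads in some library were found for 82 of them. Rpl10l, a testis paralog of Rpl10, had 0 reads in every library, where 3 reads would have been 0.150 to 0.182 FPKM. Kinases of ribosomal protein S6 carry related symbols and were not taken.

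RNA was sequenced from 6 libraries, 1 for each condition. The mice were C57BL/6, aged 6 to 8 weeks. WT mice were normal mice, and MA9 mice carried acute myeloid leukemia (AML) raised from c-kit+ bone marrow cells with a retrovirus (MSCV) that expresses the fusion gene MLL-AF9 together with GFP, after which GFP+ AML cells were transplanted. Iron overload (FE) was made with 6 intraperitoneal injections of 0.2 mL of iron dextran at 25 mg/mL, given every other day, and the other mice received PBS. Macrophages were sorted from the GFP- cells of normal and leukemic mice, each without and with iron (WT, WT/FE, MA9, MA9/FE), and leukemia cells from the bone marrow of the leukemic mice. By the deposited labels the macrophages are splenic, whereas the study's methods describe macrophages of bone marrow, so their organ cannot be told here. Whether a library came from 1 mouse or from pooled mice was not given. With 1 library per condition, differences between a pair of libraries have no replicate check, and intervals given for them cover the counting of reads only.

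A cytosolic ribosome is built from a small and a large subunit, and each ribosomal protein is normally present in a fixed number of copies per ribosome, so that the genes for them are expressed together in growing cells. Their messages begin with a C followed by a run of pyrimidines, the 5′ terminal oligopyrimidine (TOP) motif, through which mTORC1 and the RNA-binding protein LARP1 control their translation, and MYC raises their transcription along with that of the rRNA machinery. Loss of a gene copy of some members, such as RPS19 or RPL11, causes Diamond-Blackfan anemia in humans, and loss of RPS14 contributes to the 5q- syndrome, a myelodysplastic disorder, so that blood formation is known to be sensitive to the amounts of these proteins.

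RefSeq start sites (build GRCm38.p6) were at hand for 63 of the 83 members. They are shown as 15 bases before and 15 bases from the start for 4 members that carry the pyrimidine run exactly at that start, with the run in capitals, beside the paralogs Rps27l and Rpl22l1, which do not carry it exactly there. In the windows shown for these paralogs, a G stands at the annotated start and a run of pyrimidines follows it directly. The set is shown because the pyrimidine run is the sequence feature the members are known to share and because Rps27 and Rps27l differed in their levels across the libraries.
Rps6 (chr4:86857353-86857382, minus strand): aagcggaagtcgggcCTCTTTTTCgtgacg
Rpl35 (chr2:39005117-39005146, minus strand): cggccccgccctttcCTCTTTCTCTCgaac
Rpl38 (chr11:114668565-114668594, plus strand): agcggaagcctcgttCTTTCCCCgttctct
Rps27 (chr3:90213634-90213663, minus strand): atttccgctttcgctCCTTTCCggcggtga
Rps27l (chr9:66946071-66946100, plus strand): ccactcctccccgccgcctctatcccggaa
Rpl22l1 (chr3:28805493-28805522, plus strand): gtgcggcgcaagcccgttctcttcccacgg
A C at the start followed by C or T up to a run of at least 5, read on the transcribed strand only, stood in 13 of 75 member windows (17.3%) and in 810 of 32776 windows of other genes (2.47%). The run was then allowed to begin at a C within 10 bases of the annotated start. Away from the start itself, an A or G had to stand just before that C. By this rule 45.3% of member windows and 23.6% of all windows held the run. A window without the run says only that these letters do not stand at that annotated start.

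The libraries held 16085346 to 19518359 reads by the step that a read makes in the deposited values, and at least 96.8% of the values above 0 came out as whole reads. The macrophage libraries held markers of macrophages and of other cells. The summed level of 15 macrophage markers was 1212 to 2261 FPKM in the macrophages. It was 1372 and 1721 FPKM in the leukemia cells without and with iron, inside that range. The median level of the 15 was 35.2 to 91.6 FPKM in the macrophages and 6.30 and 7.10 FPKM in the leukemia cells. In leukemia cells against macrophages 4 of 15 were higher without iron (median -1.94) and 2 of 15 with iron (-3.39). Adgre1, the gene of F4/80, read 32.2 to 54.5 FPKM in the macrophages and 27.5 and 28.6 FPKM in the leukemia cells. Hoxa9, a target of MLL-AF9, read 40.6 and 41.0 FPKM in the leukemia cells and 0.119 to 0.791 FPKM in the macrophages. The summed level of 8 B cell markers was 1168 to 2119 FPKM in the macrophage libraries and 18.4 and 19.6 FPKM in the leukemia cells. The 8 neutrophil markers summed to 3.02 and 1.86 FPKM in WT and WT/FE macrophages and to 1740.3 and 883 FPKM in MA9 and MA9/FE macrophages. The part of these cells in the results below was not tested, and in bulk RNA fewer cells of a type and less RNA per cell cannot be told apart.

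Ribosomal protein genes stood near the top of every library. Their reads made up 5.98% of all reads in WT macrophages (95% Wilson interval 5.96 to 5.99%) and 5.08% (5.07 to 5.10%) under iron overload. Macrophages of leukemic mice gave 5.43% (5.42 to 5.44%), and those of leukemic mice with iron gave 8.17% (8.15 to 8.18%). For leukemia cells the share was 5.97% (5.96 to 5.98%) without and 6.19% (6.18 to 6.20%) with iron. MA9/FE macrophages thus stood above the other libraries, by more than these differed among themselves. The small subunit genes took 3.72% of reads in MA9/FE macrophages and 2.30 to 2.72% elsewhere, and the large subunit genes 4.44% and 2.78 to 3.47%. Mitochondrial genes took 1.64% of reads in MA9/FE macrophages and 1.19 to 1.30% in the others, and Gm23935, a short noncoding gene, read 93020 FPKM there and 5090 to 66326 FPKM elsewhere. The part of these values in the member share was not tested.

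Between 28 and 40 of the 100 genes highest by FPKM in a library were members, with 40 in each leukemia cell library and 28 in MA9 macrophages, and 71 to 73 of the highest 500. Above 100 FPKM in every library were 71 of the 83. Rplp1, a protein of the stalk that recruits elongation factors to the large subunit, was the highest member, at 2683 and 2213 FPKM in macrophages of WT and WT/FE mice, 2439 and 3752 FPKM in those of MA9 and MA9/FE mice, and 2094 and 2298 FPKM in leukemia cells without and with iron. Next by mean level came Rps3a1, Rplp0, Rps15 and Rpl36. Rplp0, which anchors the stalk, read 1133 and 1033 FPKM in macrophages of WT and WT/FE mice, 1232 and 1689 FPKM in those of MA9 and MA9/FE mice, and 1517 and 1569.8 FPKM in leukemia cells without and with iron, and the third stalk protein, Rplp2, read 331 and 287 FPKM in macrophages of WT and WT/FE mice, 290.1 and 449.9 FPKM in those of MA9 and MA9/FE mice, and 272 and 287 FPKM in leukemia cells without and with iron. Rplp2 has a longer union of exons (2072 bases against 499 for Rplp1), over which its FPKM was divided.

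The low end held 5 members under 10 FPKM in every library, namely Rpl10l, Rpl39l, Rpl3l, Rpl24 and Rps10. Rpl3l, the paralog of Rpl3 known from striated muscle, read 0.312, 0.58, 0.251, 0.265, 0.302 and 0.614 FPKM, in the order of macrophages WT, WT/FE, MA9, MA9/FE and then leukemia cells without and with iron. Rpl39l, a paralog of Rpl39 known from testis, read 0.801, 0.215, 0.425, 0.598, 0 and 0 FPKM in that order, with 0 reads in the leukemia cells, where 3 reads would have been 0.199 and 0.202 FPKM. The low level of Rps10 sat beside high levels of near-identical copies, given further on. The near-identical copies of Rpl24 held few reads themselves, 50 to 108 in a library beside 31 to 80 for Rpl24. The order of the 82 detected members was nearly the same in all libraries (Spearman's rho 0.957 to 0.996 between libraries, over 82 genes that share gene models and length normalization, given as a description).

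**Figure D1:**
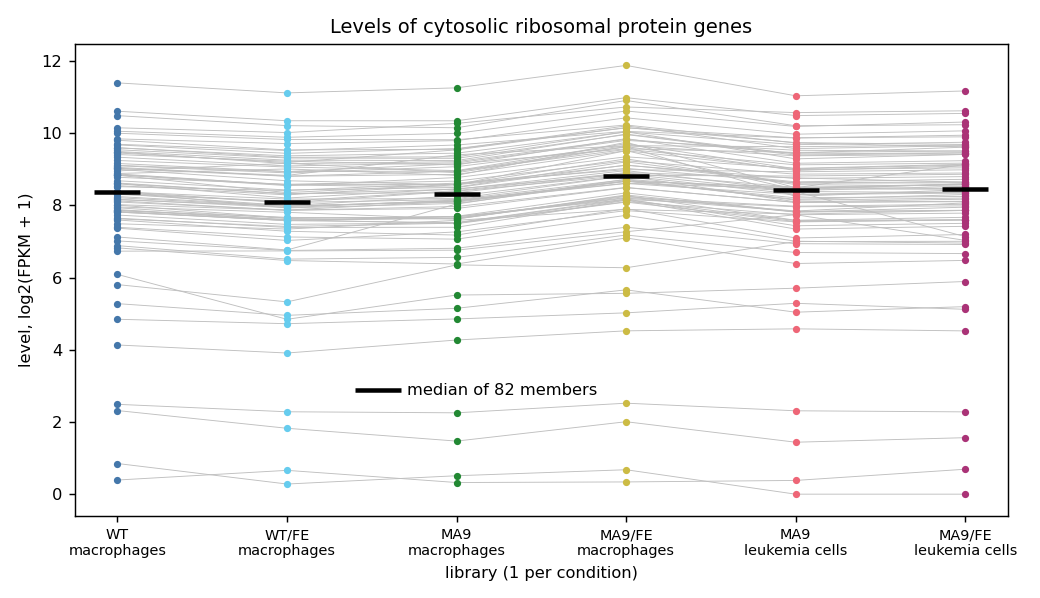
Level of each of 82 ribosomal protein genes with at least 10 reads in some library, as log2(FPKM + 1) on the y axis, in the 6 libraries on the x axis, with grey lines joining the values of a gene and black bars at the median. The genes keep their order across libraries, and 72 of the 82 were highest in MA9/FE macrophages.

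FPKM depends on the gene model. The deposited values were divided by the union of a gene's exons, which for the members included retained introns and long alternative ends: its median was 1770 bases, against a median coding length of 456 bases, whereas all protein-coding genes had medians of 3499 and 1155 bases. When member levels were set per kilobase of coding sequence instead, the order of the members correlated with that by FPKM at a Spearman's rho of 0.60 (82 genes). The division is the same for a gene in every library, but on the log2(FPKM + 1) scale it sets how far the difference of a gene of low FPKM is drawn toward 0. For Rpl39l the difference between WT/FE and WT macrophages was -0.57 on that scale and -1.51 with a pseudocount of 0.1. Members are short genes, however, and differences that follow gene length across a whole library move with them, so the member medians of the 7 pairs of libraries are also given with the trend on length taken out.

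Iron overload in normal mice, the comparison of WT/FE with WT macrophages, came with lower levels. On the scale of log2(FPKM + 1) after scaling by the trimmed mean of M values (TMM), 78 of 82 members were lower in WT/FE macrophages and 4 were higher (Rpl7a, Rpl17, Rps27 and Rpl3l), while 49.4% of all 16605 genes kept were higher. Rpl3l had only 16 reads in WT/FE and 10 reads in WT macrophages. The member median was -0.24, with quartiles of -0.28 and -0.18, and the median of all genes was -0.00261. No member was at least 2-fold higher, beside 0.741% of all genes, and 1 was at least 2-fold lower, beside 0.524% of all genes. This was Rpl21, of the large subunit, at 66.9 FPKM in WT and 27.7 FPKM in WT/FE macrophages (-1.23 ± 0.08, 95% counting interval), whose near-identical copies held 71.5% of the reads of both together. Wherever copies are added, log2 reads per library depth without a pseudocount are used. On that scale the difference of Rpl21 was -1.26 alone and -0.40 with these copies. Of the copies, BC004004, a protein-coding gene, held 3698 and 3003 reads in WT and WT/FE macrophages, at 9.88 and 9.32 FPKM. All its reads were counted, also any outside the aligned sequence, so the share on near-identical sequence can be smaller.

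In macrophages of leukemic mice the members lay the other way. Of 80 members kept, 79 were higher in MA9/FE macrophages than in MA9 macrophages, against 50.6% of all 16346 genes. Their median difference was 0.61 with quartiles of 0.54 and 0.67, a 1.53-fold difference, and the median of all genes was 0.00507. No member reached a 2-fold difference in either direction, which 1.15% of all genes did upward and 1.26% downward. Rps21 was the farthest, at 379 FPKM in MA9 and 729.8 FPKM in MA9/FE macrophages (0.97 ± 0.05), followed by Rpl17 (0.94) and Rps15 (0.78). The only member not higher was Rps27l, the p53-responsive paralog of Rps27, with 80.6 FPKM in MA9 and 76.2 FPKM in MA9/FE macrophages (-0.06 ± 0.12).

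Markers of several cell types moved in these comparisons as well. In MA9/FE against MA9 macrophages all 15 macrophage markers (median 0.92), all 8 B cell markers (0.65) and 6 of 7 T cell markers (0.47) were higher, while 7 of 8 neutrophil markers (-0.92) and all 8 cell cycle markers (-0.53) were lower. In WT/FE against WT macrophages 14 of 15 macrophage markers were higher (0.97), 5 of 8 B cell markers (-0.06) and all 7 T cell markers (-0.30) were lower, and 6 of 7 erythroid markers were higher in each of these comparisons (0.77 in normal and 0.83 in leukemic mice). The part of these markers in the member differences was not tested.

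Each member kept in both comparisons had a larger iron difference in leukemic than in normal mice. The iron difference in MA9 macrophages minus that in WT macrophages had a median of 0.86 over 80 members (quartiles 0.77 and 0.93) and was above 0 for all 80, whereas over 15662 genes the median was 0.000155 and 7833 were above 0. With the trend on exon length removed the member median was 0.66, again with 80 of 80 above 0. Each of the 4 conditions in this contrast was a single library, so the difference between the differences was not tested.

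In the leukemia cells the member median lay near 0. Iron dextran went with 65 of 81 members higher in them and 16 lower, with a median of 0.05, beside 50.4% of all 15271 genes higher. For 24 of the 81 the difference was smaller than its 95% counting interval. No member was at least 2-fold higher, beside 0.399% of all genes, and 1 was at least 2-fold lower, beside 0.426% of all genes. This was Rps27a, which encodes ubiquitin fused to ribosomal protein S27a, at 332 FPKM in MA9 and 139 FPKM in MA9/FE leukemia cells (-1.25 ± 0.05). Rpl7a stood next, at 213 and 129.6 FPKM (-0.71 ± 0.06). In the same comparison 6 of 7 erythroid markers (median -1.11) and 7 of 8 neutrophil markers (-0.37) were lower, and their part in the member values was not tested.

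Leukemia without iron, the comparison of MA9 with WT macrophages, showed a spread around a small shift. Of 82 members 67 were lower and 15 higher in MA9 macrophages, with a median of -0.15, and 49.5% of all 16768 genes were higher. No member passed 2-fold, beside 3.8% of all genes higher and 0.895% lower. Short members lay lower: the 50 with a coding length of up to 500 bases had a median of -0.21 and the 29 of over 500 and up to 1000 bases had -0.09. All 8 neutrophil markers (median 7.04) and 5 of 6 myeloid progenitor markers (3.86) were higher there and all 8 B cell markers (-0.79) lower. Their part in the member values was not tested. Small subunit members had a median of -0.21 (32 genes) and large subunit members -0.11 (50 genes).

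Under iron the same comparison lay upward. Between MA9/FE and WT/FE macrophages 80 of 81 members were higher, against 50.2% of all 16409 genes, with a median of 0.68 (quartiles 0.63 and 0.73), a 1.60-fold difference. At least 2-fold higher was 1 member, Rps27a, beside 2.79% of all genes, and no member was at least 2-fold lower, beside 1.69%. Rps27a read 107.6 FPKM in WT/FE and 421 FPKM in MA9/FE macrophages (1.96 ± 0.05). Rpl41, the shortest member with a coding length of 75 bases, followed at 581 and 1138 FPKM (0.97). The only member lower was Rpl3l, at 0.580 and 0.265 FPKM (16 and 7 reads, -0.32 ± 1.28), a difference smaller than its counting interval. All 8 neutrophil markers (median 6.07), 5 of 6 myeloid progenitor markers (3.01) and all 7 erythroid markers (1.38) were higher in this comparison. So were all 8 cell cycle markers (1.11), all 5 plasma cell markers (0.92) and 10 of 15 macrophage markers (0.27), but only 3 of 8 B cell markers (-0.23). Their part in the member values was not tested.

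Between leukemia cells and macrophages of leukemic mice, the member median lay in opposite directions without and with iron when no length trend was removed. Whether both kinds of cells came from the same mice was not given. If the macrophages are splenic, as labelled, cell type and organ cannot be told apart in these comparisons. Without iron, 59 of 80 members were higher in leukemia cells than in MA9 macrophages, with a median of 0.12, and none passed 2-fold, beside 7.25% of all 16876 genes higher and 12.8% lower. The member median without iron was 0.01 once the coding length trend was removed, with 43 of 80 members higher. With iron, 77 of 81 were lower in leukemia cells than in MA9/FE macrophages, with a median of -0.43 (quartiles -0.59 and -0.27). Of these, 2 were at least 2-fold lower, Rps27a (-1.63 ± 0.05) and Rps27 (-1.22 ± 0.04), beside 13.3% of all 16679 genes, and none was at least 2-fold higher, beside 9.51%. In both comparisons the members were closer together than genes at large: the standard deviation over members was 0.21 and 0.31, and that over all genes 1.24 and 1.30. The standard deviations were not matched on level, since the members stand near the top and all genes include those of few reads. The 4 libraries of these comparisons also entered those on iron, so the pairs of comparisons are not independent.

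**Figure D2:**
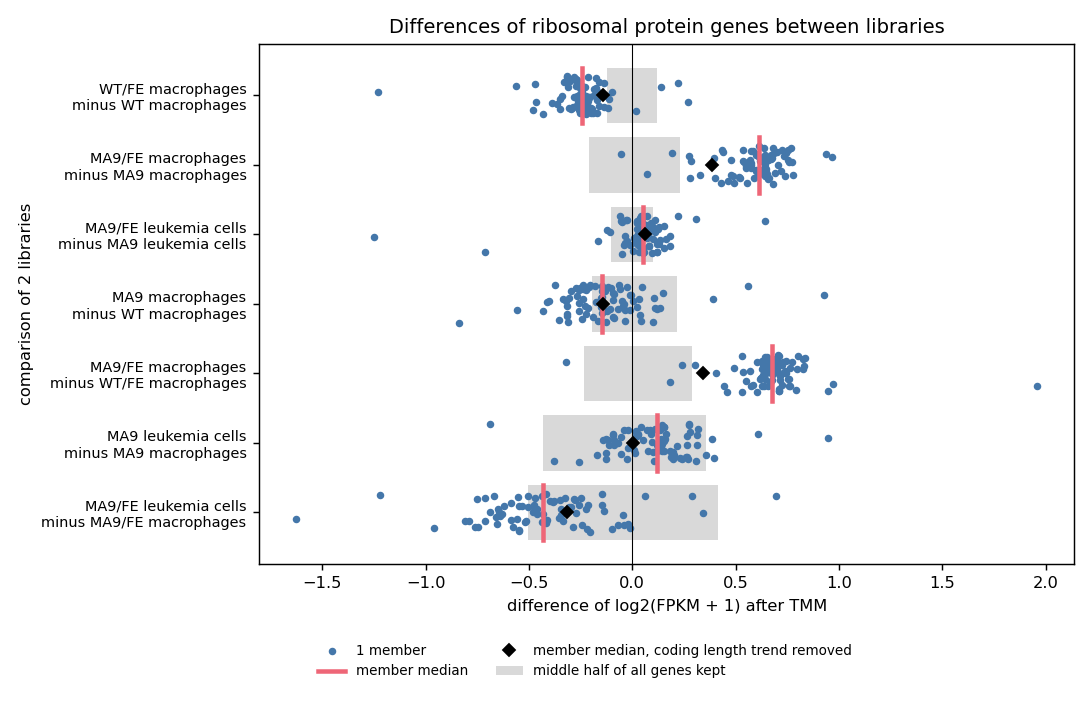
Differences of log2(FPKM + 1) after TMM on the x axis for the 7 comparisons of 2 libraries on the y axis, with a blue point for each ribosomal protein gene, a red line at their median, a grey box from the lower to the upper quartile of all genes kept, and a black diamond at the member median after the trend on coding length was removed. In MA9/FE against MA9 macrophages 79 of 80 points lie right of 0, in MA9/FE against WT/FE macrophages 80 of 81, and in MA9/FE leukemia cells against MA9/FE macrophages 77 of 81 lie left of it.

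Differences between libraries followed gene length. Across all protein-coding genes the difference between MA9/FE and MA9 macrophages ran against coding length (Spearman's rho -0.44 over 12978 genes), and so did that between MA9/FE and WT/FE macrophages (-0.46), while the difference between WT/FE and WT macrophages ran with it (0.29). In the comparisons of leukemia cells with and without iron (0.05) and of MA9 with WT macrophages (0.04) little relation was seen. Other protein-coding genes of up to 500 bases had a median of 0.25 in MA9/FE against MA9 macrophages (1125 genes) and members of that length 0.64 (49 genes). Between MA9/FE and WT/FE macrophages the values were 0.41 and 0.68, and between WT/FE and WT macrophages -0.12 and -0.27.

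After the trend on coding length was removed, the member medians kept their sign in all 7 comparisons and lay nearer to 0 in 6 of them. They were -0.14 for WT/FE against WT macrophages (5 of 82 above 0), 0.38 for MA9/FE against MA9 macrophages (78 of 80) and 0.34 for MA9/FE against WT/FE macrophages (76 of 81). For leukemia cells against macrophages the median was 0.01 without iron (43 of 80) and -0.32 with iron (10 of 81). It was 0.06 for iron in leukemia cells (65 of 81) and -0.14 for MA9 against WT macrophages (16 of 82). With the trend on exon length removed in place of coding length, the medians in the same order were -0.17, 0.47, 0.52, 0.10, -0.37, 0.06 and -0.12.

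**Figure D3:**
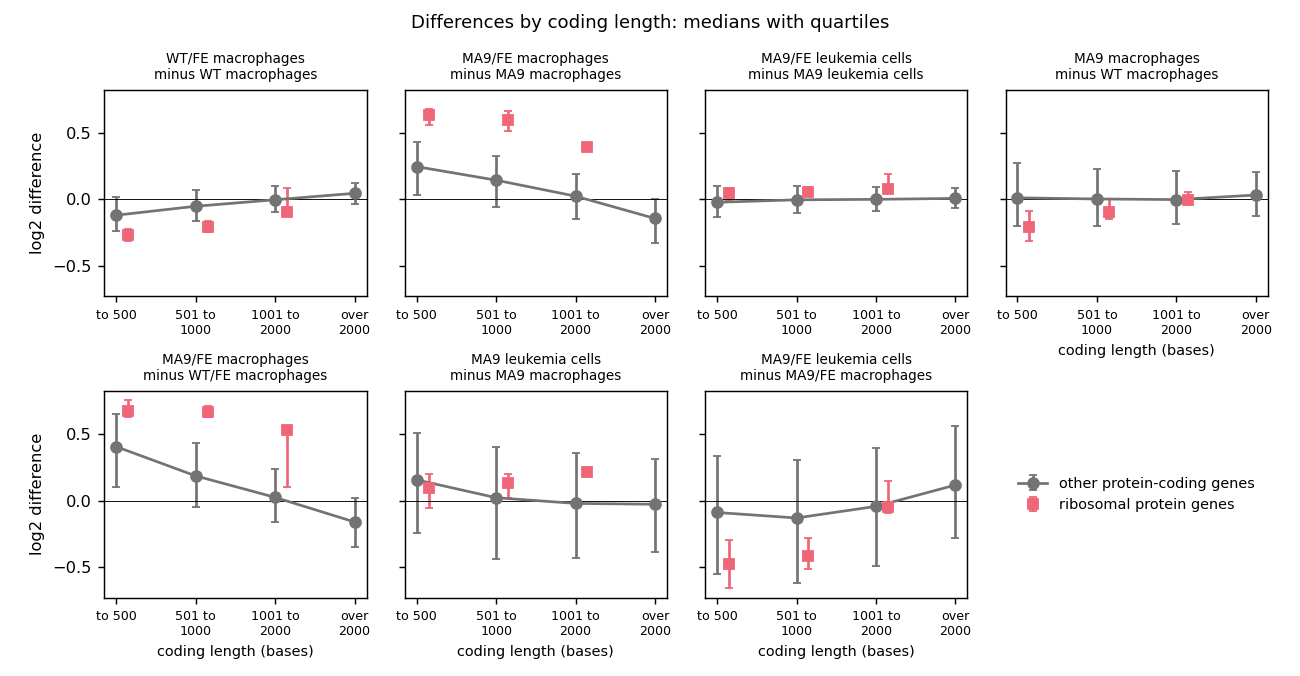
Median differences (y axis, log2) in 4 classes of coding length (x axis, bases) for other protein-coding genes (grey circles) and ribosomal protein genes (red squares), with bars from the lower to the upper quartile, in the 7 comparisons. In MA9/FE against MA9 macrophages short genes of both kinds lie above long ones, and the squares lie above the circles in each class that holds members.

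Models that used several libraries at once were fitted with limma across all genes. For leukemia over the 4 macrophage libraries with iron as a term (1 residual degree of freedom), 79 of 81 members had a positive estimate with a median of 0.26, and none passed an adjusted p of 0.05, beside 3.49% of 16112 genes called higher and 0.534% called lower. The estimate averages opposite results: 15 of 82 members were higher without iron (median -0.15) and 80 of 81 with iron (0.68). The sign of the member median thus rested on the comparison of MA9/FE with WT/FE macrophages. Without an adjustment 2 members had a p under 0.05, Rps27a (1.44 ± 0.36 SE, adjusted p = 0.055 by limma) and Rps27l (0.75 ± 0.21 SE, adjusted p = 0.087 by limma). For Rps27a the call turned on the setting, with adjusted p-values by limma from 0.027 to 0.46 over the 7 settings tried. The residual in this model is the disagreement between the mice with and without iron, and not a spread between mice of the same condition.

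For iron over the 3 pairs of libraries (2 residual degrees of freedom), limma called no gene of 16982 (0% higher and 0% lower), and 602 genes and no member had an unadjusted p under 0.05. The member median was 0.12 with 74 of 81 above 0, and it rested on the MA9 macrophage pair: it was -0.09 without that pair, 0.33 without the WT pair and 0.17 without the leukemia cells. For leukemia cells against macrophages in leukemic mice with iron as a term (1 residual degree of freedom), 1 of 80 members was called higher and none lower, beside 18.4% and 23.4% of 16158 genes. The member called was Rps27l (0.63 ± 0.18 SE, adjusted p = 0.031 by limma, and 0.018 to 0.092 over the 7 settings). In the iron and the cell type model alike, the residual is the disagreement between pairs of libraries, and not a spread between mice of the same condition.

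Some members did not follow the set. When the level of each member was taken relative to the member median of its library, the range over the 6 libraries had a median of 0.30 on the log2 scale, and 16 of 82 members had a range of at least 0.5. From the widest, they included Rps27l, Rps27a, Rps27, Rpl3l, Rpl21, Rpl7a, Rpl39l, Rpl24, Rpl17, Rps21, Rpl7l1, Rps2, Rps24, Rpl30 and Rps10. At low FPKM the pseudocount holds a value nearly still while the member median moves, so such a range says little about the gene. Rpl3l, with 7 to 18 reads, had a range of 1.06 relative to the median and of 0.37 in its own level. For Rps10 these were 0.50 and 0.27. Rpl39l had 0 to 13 reads.

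Rps27l had the widest range. It read 54.9 and 39.1 FPKM in macrophages of WT and WT/FE mice, 80.6 and 76.2 FPKM in those of MA9 and MA9/FE mice, and 127 and 127 FPKM in leukemia cells without and with iron. Both leukemia cell libraries lay above all macrophage libraries, and both libraries of leukemic macrophages lay above those of normal mice. No near-identical copy of its coding sequence was found. Its paralog Rps27, on chromosome 3 (GRCm38, chr3:90212522-90213651, minus strand), read 494 and 573 FPKM in macrophages of WT and WT/FE mice, 477 and 785 FPKM in those of MA9 and MA9/FE mice, and 303 and 345 FPKM in leukemia cells without and with iron, with the leukemia cells lowest. Rps27l therefore stood at 6.83 to 16.9% of the FPKM of Rps27 in the macrophages and at 41.8 and 36.9% in the MA9 and MA9/FE leukemia cells.

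Reads of Rps27 could have been shared with Rps27rt, a gene with the same coding sequence over the aligned length (100% identity). Rps27rt held 7286 and 1829 reads in macrophages of WT and WT/FE mice, 1593 and 2447 reads in those of MA9 and MA9/FE mice, and 1356 and 804 reads in leukemia cells without and with iron. With the reads of its copies added, Rps27 turned from 0.22 to -0.32 in WT/FE against WT macrophages and from -0.04 to -0.57 in MA9 against WT macrophages, both at the side of the member median. In MA9/FE leukemia cells against MA9/FE macrophages it was -1.23 alone and -1.30 with copies, by reads.

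Rps27a (chr11:29545846-29548109, minus strand) read 138 and 108 FPKM in macrophages of WT and WT/FE mice, 262 and 421 FPKM in those of MA9 and MA9/FE mice, and 332 and 139 FPKM in leukemia cells without and with iron. The MA9 and MA9/FE macrophages and the MA9 leukemia cells thus lay high, and WT and WT/FE macrophages and MA9/FE leukemia cells low. Its near-identical copies held 4.0% of the reads of both together, and with them its difference for iron in leukemia cells was -1.16 in place of -1.26 by reads.

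Rpl7a read 105 and 106 FPKM in macrophages of WT and WT/FE mice, 107 and 153 FPKM in those of MA9 and MA9/FE mice, and 213 and 129.6 FPKM in leukemia cells without and with iron, with the MA9 leukemia cells highest. Copies held 24.0% of its reads, and with them the iron difference in leukemia cells was -0.48 in place of -0.72 by reads. Rpl7l1, a paralog of Rpl7 with a role in ribosome assembly, read 27.7 and 25.4 FPKM in macrophages of WT and WT/FE mice, 27.9 and 31.5 FPKM in those of MA9 and MA9/FE mice, and 38.01 and 33.8 FPKM in leukemia cells without and with iron. Its highest libraries were those of leukemia cells, and between MA9/FE and MA9 macrophages it had a difference of 0.19 where the member median was 0.61. Rps21, of the small subunit, ranged widely without copies to speak of (0.205% of reads): it read 509.6 and 409 FPKM in macrophages of WT and WT/FE mice, 379 and 729.8 FPKM in those of MA9 and MA9/FE mice, and 346 and 386 FPKM in leukemia cells without and with iron.

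**Figure D4:**
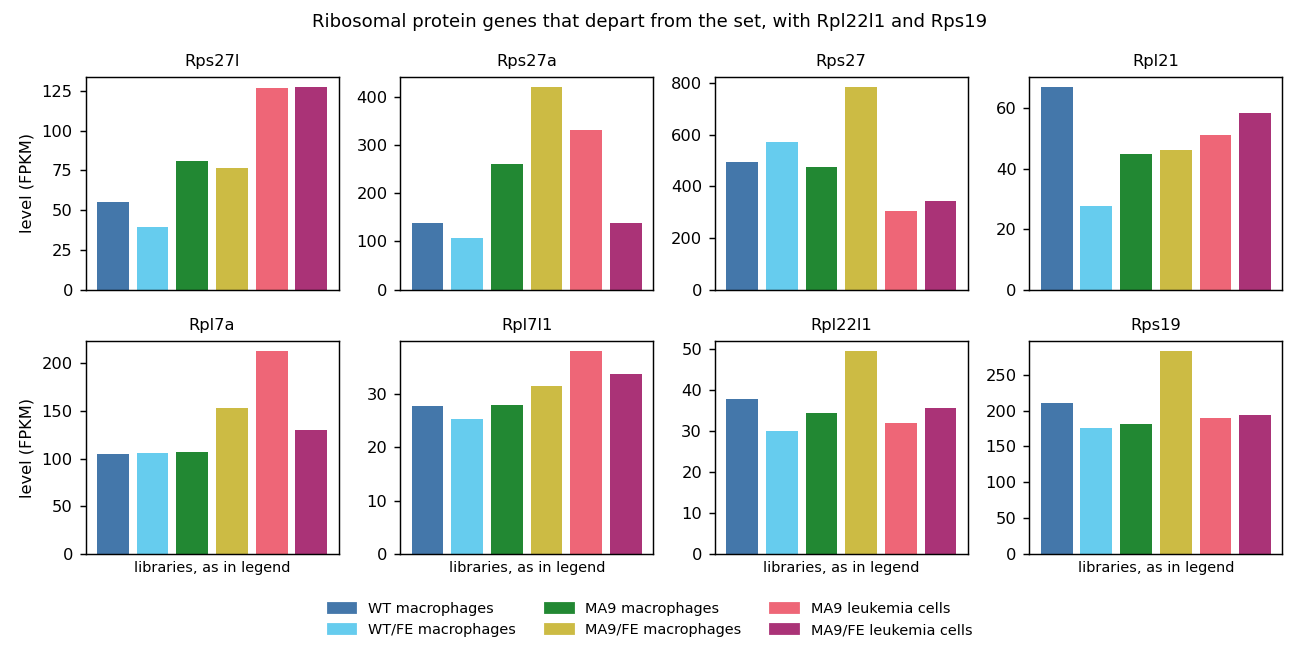
FPKM (y axis, from 0) in the 6 libraries (bars, colors as in the legend) for 6 members that depart from the set, beside Rpl22l1 and Rps19, which follow it. Rps27l is highest in both leukemia cell libraries, Rps27a is high in MA9 and MA9/FE macrophages and MA9 leukemia cells, and Rps19 is highest in MA9/FE macrophages.

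Processed pseudogenes are a known difficulty for this family. A blastn search of each member's coding sequence against the GENCODE M21 transcripts found 567 other genes at 95% identity or more over at least 80% of its length, 549 of them processed pseudogenes, for 77 of the 83 members. Of these copies 230 had at least 10 reads in some library. The copies held at least 10% of the reads of member and copies together for 19 members and at least 50% for 3. Among the 16 members that departed from the set, 7 had a copy share of at least 10%, and among the other 66, 12 had.

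For Rps10 (chr17:27630418-27636669, minus strand), which gave 3.77 to 4.73 FPKM, the copies held 96.1% of the reads, most of them on Rps10-ps2, with 3155 to 4874 reads. Between MA9/FE and MA9 macrophages its difference by reads was 0.35 alone and 0.70 with copies, and on the log2(FPKM + 1) scale 0.29 alone. For Rpl24 the copies held 63.5% of the reads, and 47.0% of its exon length overlapped Gm28037 on the same strand, so that its 1.71 to 3.98 FPKM cannot be split between the genes. Rpl17 read 470.5, 513, 454, 857, 358 and 559 FPKM in the order of the libraries used above, while Rpl17-ps10 held 7423, 3646, 3763, 3239, 4686 and 2211 reads, and with all copies added its iron difference in leukemia cells was 0.22 in place of 0.64. Over all members the medians by reads were -0.25, 0.62, 0.05, -0.15, 0.68, 0.12 and -0.44 alone and -0.24, 0.61, 0.05, -0.15, 0.66, 0.12 and -0.44 with copies, in the 7 comparisons in the order they were described.

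Among the other paralogs, Rpl22l1, a paralog of Rpl22 that also acts in RNA splicing, stood at 26.2 to 31.0% of the FPKM of Rpl22, with 37.8, 29.96, 34.5, 49.5, 31.9 and 35.6 FPKM against 128, 107, 111, 167, 122 and 119.7 FPKM in the same order of libraries. Its limma estimate between leukemia cells and macrophages was -0.34 ± 0.17 SE (adjusted p = 0.14 by limma). Rpl7l1 stood at 6.33 to 8.04% of Rpl7 in macrophages and at 11.2 and 9.19% in leukemia cells. Rps4l, listed as a transcribed processed pseudogene in this annotation and so no member, had 100 to 159 reads in the macrophage libraries and 5 and 2 reads in leukemia cells without and with iron, against a partner, Rps4x, at 603 to 1003 FPKM.

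Some members are known from anemias or from roles outside the ribosome. Of the genes of Diamond-Blackfan anemia, Rps10 (at low FPKM), Rps24 and Rps27 were among the 16 members that departed, and Rps19, Rpl5 and Rpl11 were not. Rps19 read 211 and 177 FPKM in macrophages of WT and WT/FE mice, 182 and 283 FPKM in those of MA9 and MA9/FE mice, and 189.9 and 193 FPKM in leukemia cells without and with iron, with differences of -0.25 for iron in normal mice and 0.66 in leukemic macrophages. Rpl5 and Rpl11, which bind MDM2 as a complex with 5S rRNA, had -0.14 and -0.25 in the former and 0.60 and 0.55 in the latter. Rps14 read 773, 642, 648, 1049, 623 and 679 FPKM in the order above, with values that are not whole reads. Rps6, the substrate of the S6 kinases, read 769, 661, 695, 1046, 819 and 858 FPKM and had -0.21 and 0.61. Rpl38, known for a role in the translation of Hox messages, read 437, 382, 406, 601, 464 and 475 FPKM. Rps3, which also acts in DNA repair, and Rpsa, also a laminin receptor, had 0.62 and 0.60 between MA9/FE and MA9 macrophages. Rpl13a, a component of an inhibitor of translation in interferon-treated myeloid cells, read 14.0 to 22.9 FPKM, with 35.4% of its exon length shared with other genes on the same strand.

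Ribosomal proteins whose symbols fall outside the pattern were set beside the members. Of 6, among them Fau, Rack1 and Rps27rt, 6 were higher in MA9/FE macrophages than in MA9 macrophages, with a median of 0.59 (0.42 with the coding length trend removed), and 1 of 6 was higher in WT/FE than in WT macrophages, with a median of -0.19. Fau, which encodes ribosomal protein S30 fused to a ubiquitin-like protein, read 1411 and 1184 FPKM in WT and WT/FE and 1033 and 1875 FPKM in MA9 and MA9/FE macrophages. Of 77 mitochondrial ribosomal protein genes kept, 74 were higher in MA9/FE macrophages than in MA9 macrophages with a median of 0.23, which was 0.05 with the coding length trend removed, and 8 were higher in WT/FE than in WT macrophages with a median of -0.15 (-0.06 with the trend removed). The members kept 0.38 and -0.14 under the same removal.

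The other translation genes were followed by lists. In MA9/FE against MA9 macrophages, 6 of 11 elongation and release factors were higher with a median of 0.03, 22 of 35 initiation factors with 0.06, 27 of 50 ribosome assembly genes with 0.02, 13 of 19 RNA polymerase I genes with 0.18 and 6 of 20 aminoacyl-tRNA synthetases with -0.05. With the coding length trend removed these medians were -0.05, 0.03, 0.02, 0.12 and -0.03. Other messages with a TOP motif or that host snoRNAs were higher in 14 of 15 cases with a median of 0.32, or 0.14 with the coding length trend removed. Eef1a1, the main elongation factor and a TOP message, read 2745 and 3651 FPKM in MA9 and MA9/FE macrophages (0.43), and Eef2, also a TOP message, 965 and 967 FPKM (0.03). Genes of mTORC1, S6 kinase and MYC control were higher in 4 of 18 cases, with a median of -0.22. No gene of these lists or of the mitochondrial ribosomal proteins was 2-fold apart in this comparison or in that of WT/FE with WT macrophages, apart from Rps27rt, which was 2-fold lower in WT/FE macrophages.

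In MA9 against WT macrophages the assembly and translation lists lay higher while the members lay lower. There, 45 of 50 assembly genes were higher (median 0.22), 30 of 35 initiation factors (0.25), 20 of 20 aminoacyl-tRNA synthetases (0.37) and 8 of 11 elongation and release factors (0.29), beside 15 of 82 members (-0.15). All 8 cell cycle markers were higher as well, with Mki67 at 11.7 FPKM in WT and 57.1 FPKM in MA9 macrophages. Between MA9/FE and WT/FE macrophages, 47 of 50 assembly genes were higher with a median of 0.36. In leukemia cells against MA9 and MA9/FE macrophages 45 and 41 of 50 were higher, with medians of 0.37 and 0.42, where the members had 0.12 and -0.43. Of 11 p53 targets, 5 were higher in MA9/FE macrophages than in MA9 macrophages (median -0.04). In leukemia cells against macrophages 6 of 11 were higher without iron (median 0.07) and 4 of 11 with iron (-0.18).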

How the data were processed

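RNA was extracted with a QIAGEN RNeasy kit from sorted cells and sequenced on an Illumina NovaSeq. FPKM values per gene were deposited by the authors, 1 table for each of the 6 libraries. Their processing notes name Bowtie2 2.2.5, RSEM and the build mm10, and the annotation was not given in the sources used here. FPKM times the GENCODE M21 union exon length was a whole multiple (within 0.05) of a fixed step for at least 96.8% of values above 0, which gave whole reads and a depth of 16085346 to 19518359 reads. RSEM as named would give estimated counts that need not be whole. The sum of the reads recovered was 99.3 to 102% of that depth in 5 libraries and 109% in MA9/FE macrophages. Of the members, 79 of 83 had whole reads in every library, the others (Rps14, Rps18, Rpl17 and Rps28) had approximate ones, and 123 genes without an exon length were left out.

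Each of 7 pairs of libraries was compared on log2(FPKM + 1) after hand-coded TMM (30% of M and 5% of A values trimmed), for genes with at least 10 reads in either library. A 2-fold difference was counted without a test. Length trends were removed by lowess (fraction 0.3). limma 3.58.1 in R 4.3.3 (trend, Benjamini-Hochberg over all genes, adjusted p at or under 0.05) was fitted to genes that had at least 10 reads in 2 or more libraries. Copies were found with blastn 2.17.0. All reads of a copy gene, also any outside the aligned part, were added to those of the member and compared as log2 reads per depth after TMM. The scripts were tested on simulated data. Intervals are 95% Wilson intervals for shares and normal intervals for log2 differences, and both cover counting only. Whether reads were counted by strand was not given, so genes that overlap cannot be told apart.

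The gene family and the gene lists were chosen with earlier results of these data known, and the members follow from the rule on symbols. Members to be named were the 5 highest and 5 lowest, the 3 largest differences in each direction in each pair, listed paralogs and 12 further members. Not every one of these members and differences is reported here. Members that departed from the set (a range of at least 0.5) were listed in addition, and those described further among them were chosen after their values were seen. Some genes of the lists are not reported here by name. Alternatives were other scalings (total reads, median of ratios, TMM without the members), a pseudocount of 0.1, other read minimums, removal of length trends, and leaving out members or pairs. The trend on coding length, the near-identical copies and the total as a sum of reads were added after the data were seen.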

Additional observations from a re-analysis of the deposited data

Results flagged for a closer look

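The median difference of the ribosomal protein genes lay on opposite sides of 0 under the same contrast in 3 cases, each of which rests on single libraries and was not tested. Iron overload gave -0.2443 in WT/FE against WT macrophages and 0.6148 in MA9/FE against MA9 macrophages. Leukemia gave -0.1458 in MA9 against WT macrophages and 0.6762 in MA9/FE against WT/FE macrophages. Leukemia cells against macrophages gave 0.119 in MA9 mice and -0.4338 in MA9/FE mice. The MA9/FE macrophage library enters all 3, so they are not independent of each other. With the trend on coding length removed the medians were -0.14 and 0.38, -0.14 and 0.34, and 0.01 and -0.32.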

How the results depend on the processing

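The labels carry no replicate numbers, so libraries were paired by mouse group and cell type. For the iron estimate over the 3 pairs, limma without the pair as a block also called no gene and left the member median at 0.12. Scaling, pseudocount and read minimum left the sign of every member median as it was. Total reads moved that of MA9/FE leukemia cells against MA9/FE macrophages from -0.43 to -0.39. Removal of the exon length trend gave -0.17, 0.47, 0.52 and -0.37, and of the coding length trend -0.14, 0.38, 0.34 and -0.32, for iron in normal and in leukemic macrophages, leukemia under iron and cell type under iron, and coding length gave 0.0051 for MA9 leukemia cells against MA9 macrophages. A pseudocount of 0.1 gave 2 members past 2-fold in place of 1 in WT/FE against WT macrophages and 1 in place of 0 in MA9 against WT macrophages.

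The member share of reads, in the order of libraries used above, was 5.53, 4.70, 5.03, 7.56, 5.55 and 5.74% without members whose named pseudogenes held at least 10% of reads, 6.05, 5.15, 5.50, 8.30, 6.04 and 6.27% of reads outside mitochondrial genes, and 5.88, 5.12, 5.37, 7.52, 6.02 and 6.21% of the sum of recovered reads. MA9/FE macrophages were highest in each.

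In limma, 1 member, Rps27a, was called for leukemia under total reads, median of ratios, TMM without the members and a pseudocount of 0.1. All genes called numbered 648, and 1 with no read minimum and 158 with the exon length trend removed. For leukemia cells against macrophages, 2 members were called with that trend removed (Rps27l and Rps27), and with no read minimum 3292 in place of 6758 genes were called, among the members Rpl39l (lower) in place of Rps27l. For iron, leaving out a pair gave 0 to 17 genes called and 0 members, and member medians of -0.094, without the MA9 macrophage pair, to 0.33. The cause of these changes was not tested. For the members farthest apart in each pair, 273 repeats stayed within the counting interval and 15 did not. Depth limits members under 10 FPKM.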
